A study of Rattus norvegicus with 3 samples.

Results

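Solute carriers are membrane proteins that move ions, nutrients, organic anions, metals and metabolites across the plasma membrane or the membranes of organelles. The genes described here are those whose single annotated symbol begins with Slc, the organic anion carriers of the Slco group included, without 11 carriers of urea, osmolytes, glucose and salt that were set aside by name. The annotation listed 135 such genes on 150 probes, out of 4390 named genes, and they belong to 37 numbered families and to Slco. Of these, 92 had a ratio on all 3 arrays, 36 on 2 arrays and 7 on 1 array.

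The samples were total RNA of the kidney inner medulla of rats, and each array set RNA of lithium-treated rats (red) against RNA of control rats (green) with no dye swap. Treatment lasted 1 month, and the control rats are described only as control. Arrays 1 and 2 carried pools of 2 rats per channel and array 3 carried 1 rat per channel, from different animals on each. The sources used here give no strain, age, sex or lithium dose. A ratio is given below as lithium over control, a direction that the channel labels make likely but that the table does not state. Its log base is not stated either, so a ratio of 0.10 is a 1.26-fold difference in base 10 and a 1.07-fold one in base 2. Ratios hold no level, so the labelled tissue could not be checked against the abundance of its markers. In bulk tissue, fewer cells of a type and less RNA per cell cannot be told apart, and with lithium RNA always in red, dye and treatment cannot be told apart either.

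Most solute carriers are secondary active or passive: they use the sodium, proton or other gradients that ATP-driven pumps set up. In the kidney, the cortex and outer medulla hold the carriers that recover filtered sugar, phosphate, amino acids and bicarbonate and that secrete organic anions and cations. The inner medulla is known instead for carriers that load cells with osmolytes and urea and for acid-base exchange in the collecting duct.

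The promoters of 4 members are printed first because the values below turn on these neighbouring genes: Slc22a25 and Slc22a8 lie next to each other and next to Slc22a6, and Slco1a4 and Slco1a1 are adjacent members of the Slco1 cluster. RefSeq windows of the assembly GRCr8 were found for 116 of the 135 genes, and for Slc22a6 and Slco1c1 none was found in the table used. Each sequence is the 250 bases before the annotated start, 5′ to 3′ in the direction of the gene. In the Slc22 pair the capitals mark GTTAAT, a half-site of the HNF1 motif, searched on both strands (ATTAAC on the other); HNF1 factors are known regulators of organic anion transporter genes in the proximal tubule. In the Slco1a pair the capitals mark the bases that are identical in an alignment of both.
Slc22a25 (chr1:214862341-214862590, minus strand): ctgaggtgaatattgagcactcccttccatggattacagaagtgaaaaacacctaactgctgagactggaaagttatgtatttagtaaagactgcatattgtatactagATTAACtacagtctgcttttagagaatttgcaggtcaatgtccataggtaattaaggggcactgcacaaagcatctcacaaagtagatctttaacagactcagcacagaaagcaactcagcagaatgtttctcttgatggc
Slc22a8 (chr1:214927034-214927283, plus strand): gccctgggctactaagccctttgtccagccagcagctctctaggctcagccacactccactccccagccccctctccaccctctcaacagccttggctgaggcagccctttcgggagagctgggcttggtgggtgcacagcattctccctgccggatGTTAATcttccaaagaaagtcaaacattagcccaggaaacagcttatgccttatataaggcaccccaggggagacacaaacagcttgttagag
Slco1a4 (chr4:176495847-176496096, minus strand): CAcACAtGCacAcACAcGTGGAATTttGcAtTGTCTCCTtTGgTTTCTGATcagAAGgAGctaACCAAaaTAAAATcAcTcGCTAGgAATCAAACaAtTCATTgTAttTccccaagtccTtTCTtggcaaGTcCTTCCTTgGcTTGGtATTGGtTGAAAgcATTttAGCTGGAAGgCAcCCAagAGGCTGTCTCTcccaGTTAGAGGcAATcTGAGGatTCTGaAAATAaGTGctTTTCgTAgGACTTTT
Slco1a1 (chr4:176681993-176682242, minus strand): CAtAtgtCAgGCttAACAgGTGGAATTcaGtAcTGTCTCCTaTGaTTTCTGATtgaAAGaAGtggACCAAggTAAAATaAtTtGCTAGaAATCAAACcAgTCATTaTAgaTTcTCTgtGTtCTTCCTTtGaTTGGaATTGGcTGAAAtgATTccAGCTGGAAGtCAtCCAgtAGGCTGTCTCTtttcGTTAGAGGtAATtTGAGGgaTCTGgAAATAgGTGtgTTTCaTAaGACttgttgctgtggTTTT
The half-site began 141 bases before the start of Slc22a25, on the opposite strand, and 93 bases before that of Slc22a8. It was present in 6.45% of all 33469 windows of the table and in 10 of 124 windows of members (8.06%), which is a description of the letters and not of binding. TGGAAA, the core of the tonicity-responsive element that NFAT5 binds, was present in 19.7% of all windows and in 12 of the members' (9.68%). The members leave out the urea and osmolyte carriers set aside by name, and this share too describes letters and not binding. The Slco1a4 and Slco1a1 windows shared 176 of 250 bases (70.4%), whereas the other 27 pairs among the 8 windows compared (6 Slco1 genes, Slc22a25 and Slc22a8) shared 46.8% to 56.0% in the same alignment.

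None of the 92 solute carrier genes measured on all arrays passed a limma adjusted p of 0.05, against 17 of all 3819 features (0.445%). At an unadjusted p of 0.05, 15 of the 92 passed, against 17.2% of all features, and at an adjusted p of 0.10 none did, against 1.28%. Their mean ratios ran from −0.33 to 0.20 with a median of 0.01, and the median over all features was also 0.01. A single sign on all 3 arrays was found for 37 of the 92, against 38.7% of all features. On all arrays, 24 of the 92 were above 0 (26.1%, against 24.1% of all features) and 13 were below (14.1%, against 14.6%). These shares lay close to those of the whole table, so the carriers as a set did not stand out on these arrays. Moderated 95% intervals of single genes had half-widths from 0.0906 to 0.213, with a median of 0.10. For a single carrier, the smallest p that an exact sign-flip test over the arrays allows is 0.25.

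Which side of 0 most carriers lay on depended on the centring, because most ratios were small. With each array centred on the median of all its probes, 53 of the 92 means were above 0 (55.7% of all features) and 38 below (42.7%). With the ratios as deposited, 42 were above and 49 below, and of all 3819 features 1726 were above and 2031 below. At an unadjusted p under 0.05, 10 of the 92 genes were above 0 (10.9%, against 9.71% of all features) and 5 below (5.43%, against 7.52%). Without centring, 5 were above and 12 below, against 6.13% and 10.9% of all features. With centring on the features measured on all arrays, 7 were above and 12 below, against 6.83% and 10.1%. Across the 92 genes the ratios of arrays 1 and 2 had r = 0.45, those of arrays 1 and 3 had r = 0.51 and those of arrays 2 and 3 had r = 0.05. These correlations are across genes, which share dyes and probes and are not independent replicates, and over all features they were 0.46, 0.48 and 0.16.

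**Figure D1:**
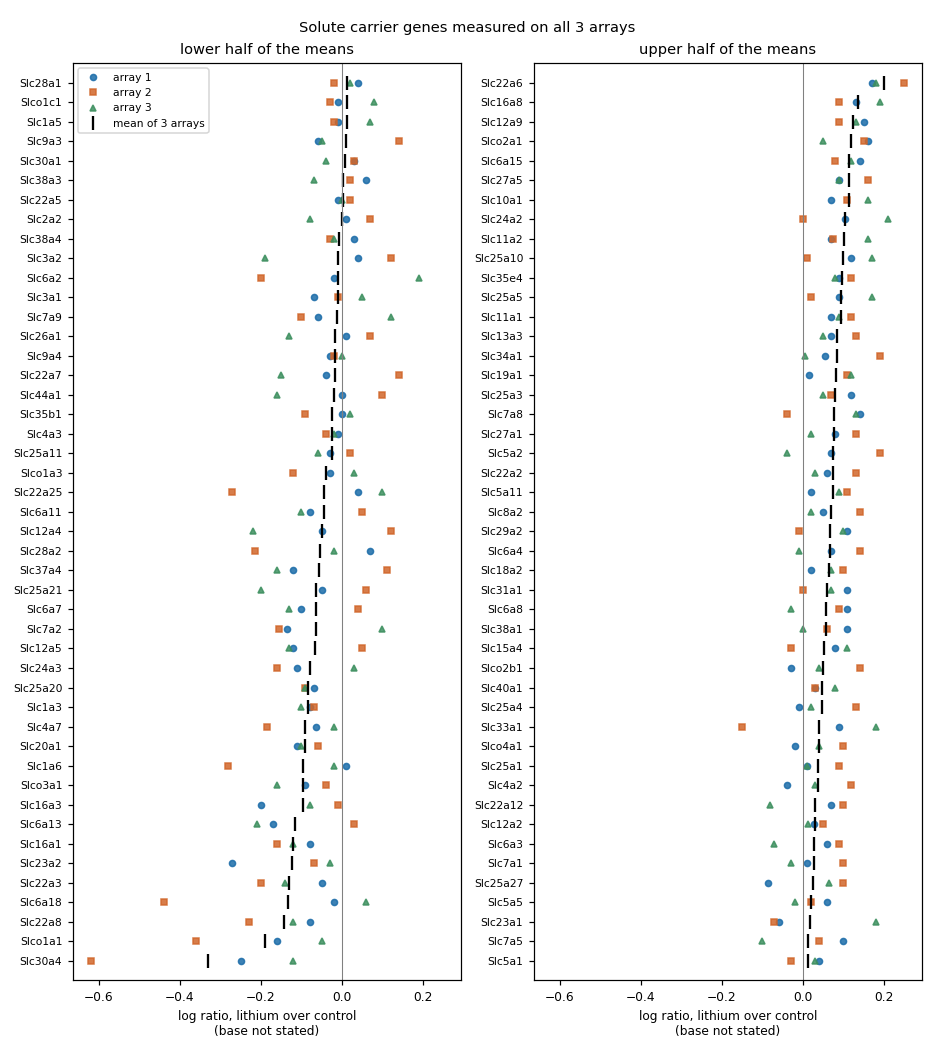
Log ratios (lithium over control, base not stated) of the 92 solute carrier genes measured on all 3 arrays, ordered by mean and split into a lower and an upper panel; each symbol is 1 array and the black tick is the mean. Slc22a6 is the highest gene at 0.20 and Slc30a4 the lowest at −0.33, and in most of the others the arrays fall on both sides of 0.

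The organic anion transporters Slc22a6 (OAT1) and Slc22a8 (OAT3) stood on opposite sides of 0 on every array. Both proteins take up organic anions such as drugs and uraemic solutes from the blood side of proximal tubule cells. Slc22a6 read 0.17, 0.25 and 0.18 on arrays 1, 2 and 3. All 3 values were above 0, and its mean of 0.20 ± 0.04 (SD, n = 3; 1.58-fold in base 10, 1.15-fold in base 2) was the highest of the 92 carriers, with a limma adjusted p of 0.105. Scaling the arrays to the same spread, a robust prior or array weights brought it past the threshold (adjusted p = 0.0366, 0.0347 and 0.00324). Slc22a8 read −0.08, −0.23 and −0.12. All 3 values were below 0, with a mean of −0.14 ± 0.08 and an adjusted p of 0.185. On arrays 1, 2 and 3 the ratio of Slc22a6 exceeded that of Slc22a8 by 0.25, 0.48 and 0.30. This pair was singled out after its values were seen, so no test of the difference is given.

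In the RefSeq gene order of GRCr8, Slc22a25, Slc22a8 and Slc22a6 follow each other with no other protein-coding gene between. Slc22a25, another organic anion carrier of this family, read 0.04, −0.27 and 0.10, and its mean of −0.04 ± 0.20 (adjusted p = 0.795) had no settled sign. The organic cation transporter genes Slc22a2 (OCT2) and Slc22a3 (OCT3) are adjacent too and also lay apart. Slc22a2, the basolateral cation carrier of the proximal tubule, read 0.06, 0.13 and 0.03 (mean 0.07 ± 0.05, adjusted p = 0.398). Slc22a3, a more widely expressed cation carrier, read −0.05, −0.20 and −0.14 (mean −0.13 ± 0.08, adjusted p = 0.215). The groups of 3 values did not overlap within either pair, which follows from their opposite signs and is no further result. The carnitine carrier gene Slc22a5 stood at 0.00 ± 0.02, the urate exchanger gene Slc22a12 at 0.03 ± 0.10 and the anion carrier gene Slc22a7 at −0.02 ± 0.15. Slc22a4, the ergothioneine carrier, read 0.08 and 0.18 and Slc22a23 read −0.16 and −0.02 on arrays 1 and 2, and both were empty on array 3. The 8 Slc22 genes measured on all arrays were divided into 4 above and 4 below 0 (3 and 5 as deposited), and their means spanned 0.34. Related Slc22 genes can share probe sequence, which was not used here, so the assignment of each ratio to 1 gene is uncertain.

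Because Slc22a6 and Slc22a8 are cortical proximal tubule genes, the other markers of that segment were set beside them. The list of 14 markers holds both genes. Of its 9 other members measured on all arrays, 5 were above and 4 below 0, with medians of 0.03, 0.05 and 0.05 on arrays 1, 2 and 3. Single markers among these 9 ran from −0.09 to 0.13 on array 1, from −0.10 to 0.24 on array 2 and from −0.05 to 0.12 on array 3. The highest of the 9 was Lrp2, the endocytic receptor megalin, at 0.13, 0.24 and 0.10 (mean 0.16 ± 0.07, adjusted p = 0.172). Cubn and Slc17a1, also markers of the list, were empty on array 3 and so are not among the 9. On arrays 1 and 2, Cubn read −0.22 and −0.36 and Slc17a1 read −0.43 and −0.21. The sodium-glucose cotransporter gene Slc5a2 stood at 0.07 ± 0.12 and the phosphate cotransporter gene Slc34a1 at 0.08 ± 0.10. The genes of the cystine transport pair, Slc3a1 and Slc7a9, both stood at −0.01, and the enzyme gene Miox did so as well. The list thus moved in no single direction, and its part in the ratios of Slc22a6 and Slc22a8 was not tested.

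**Figure D2:**
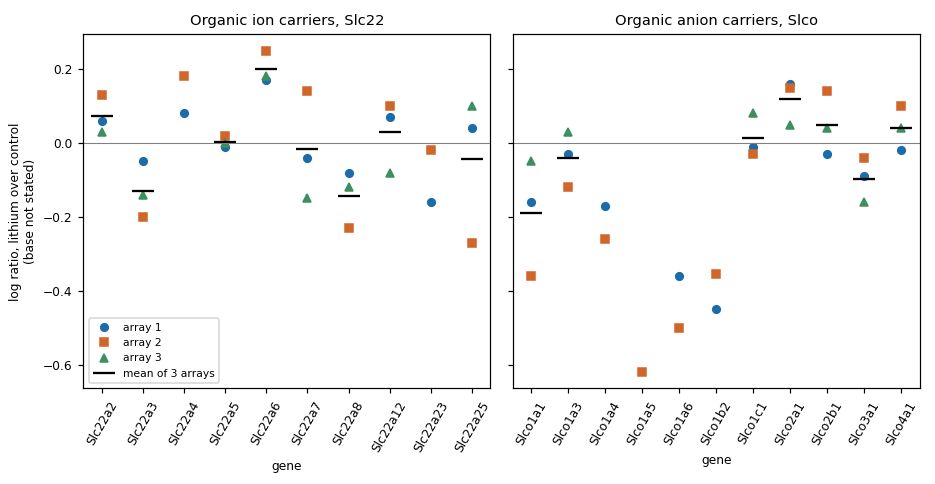
Log ratios (lithium over control, base not stated) of each Slc22 gene (left) and Slco gene (right) on arrays 1, 2 and 3; the black bar is the mean where all 3 arrays gave a value. All 3 symbols of Slc22a6 lie above 0 and all 3 of Slc22a8 below, and the lowest Slco genes have no value on array 3.

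The organic anion transporting polypeptides, encoded by Slco genes, carry bile acids, steroid conjugates, thyroid hormones and prostaglandins. Several members of the Slco1 cluster, though not all, were low on arrays 1 and 2. The cluster consists of 7 consecutive protein-coding genes in GRCr8, in the order Slco1c1, Slco1b2, Slco1a4, Slco1a1, Slco1a3, Slco1a6 and Slco1a5. All 6 with a value on both arrays 1 and 2 were below 0 on both, against 31.6% of the 4902 features measured on these arrays (30.7% were above 0 on both). Among them, Slco1c1 read only −0.01 and −0.03 and Slco1a3 only −0.03 and −0.12. Slco1b2, Slco1a4 and Slco1a6 had no value on array 3, and of the features without array 3, 65.7% were below 0 on both. Slco1a1 read −0.16, −0.36 and −0.05 (mean −0.19 ± 0.16, adjusted p = 0.193), the second lowest mean of the 92 carriers. Its value on array 2 set much of that mean, which was −0.11 without this array. Slco1a4 read −0.17 and −0.26, Slco1a6 read −0.36 and −0.50, and Slco1b2, the liver-type carrier, read −0.45 and −0.36 on arrays 1 and 2. Slco1a5 had a value on array 2 only, −0.62. None of these 4 had a value on array 3, where the cluster was represented by Slco1a1, Slco1a3 at 0.03 and the thyroid hormone carrier gene Slco1c1 at 0.08. The low values of the cluster therefore rested on 2 arrays. The Slco1a genes are close relatives, and probes, whose sequences were not used here, may not separate them.

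Slco genes outside the cluster were mixed. The prostaglandin transporter gene Slco2a1, which clears prostaglandins from the medium around medullary cells, read 0.16, 0.15 and 0.05. All 3 were above 0, with a mean of 0.12 ± 0.06 and a limma adjusted p of 0.222. Slco3a1 read −0.09, −0.04 and −0.16 (mean −0.10 ± 0.06, adjusted p = 0.302), all below 0. The steroid sulfate carrier gene Slco2b1 stood at 0.05 ± 0.09 and Slco4a1, a thyroid hormone carrier gene, at 0.04 ± 0.06, each with 1 array below 0. The bile acid carrier gene Slc10a1, known from the liver, read 0.07, 0.11 and 0.16 (mean 0.11 ± 0.05, adjusted p = 0.229). Its ileal and renal relative Slc10a2 had only array 2, at −0.33.

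Zinc, iron and copper carriers included the lowest member of all. Slc30a4 (ZnT4), which moves zinc into vesicles, read −0.25, −0.62 and −0.12. All 3 arrays were below 0, and array 2 was far lower than the others. The mean was −0.33 ± 0.26 (0.468-fold in base 10, 0.796-fold in base 2) with a limma adjusted p of 0.153. Without array 2 it was −0.19 (adjusted p = 0.302). After scaling to an equal spread across arrays, its adjusted p was 0.0288, and with array weights 0.00535. The zinc exporter gene Slc30a1 of the plasma membrane stood at 0.01 ± 0.04, and Slc30a2 read 0.18 and −0.05 on the first 2 arrays. The low value was thus not shared by the relatives measured.

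Iron carriers were above 0 on every array, each by a small amount, although Slc40a1 was below 0 on array 2 in the ratios as deposited. Slc11a1, the phagosomal metal carrier of macrophages, read 0.07, 0.12 and 0.09 (mean 0.09 ± 0.03, limma adjusted p = 0.281). Slc11a2 (DMT1), the ferrous iron importer of epithelia, had a mean of 0.10 ± 0.05 (adjusted p = 0.270), but its probes differed: one read 0.12, 0.27 and 0.22 and the other 0.02, −0.12 and 0.10. The iron exporter gene Slc40a1 (ferroportin) stood at 0.03, 0.03 and 0.08 (adjusted p = 0.576). The copper importer gene Slc31a1 stood at 0.06 ± 0.06. Of 4 macrophage markers listed, 3 were measured on all arrays, with Cd14 at 0.00 and Ptprc at 0.01. The third, Itgam, read −0.55, −0.56 and −0.05 (mean −0.39, limma adjusted p = 0.142). The part of macrophages in the ratio of Slc11a1 was not tested.

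Monocarboxylate transporters, which carry lactate and pyruvate with protons, separated by isoform. Slc16a1 (MCT1) read −0.08, −0.16 and −0.12 (mean −0.12 ± 0.04, limma adjusted p = 0.205). Slc16a3 (MCT4), the lactate exporter of glycolytic cells, read −0.20, −0.01 and −0.08 (mean −0.10 ± 0.10, adjusted p = 0.354). Slc16a8 (MCT3), known from the retinal pigment epithelium, read 0.13, 0.09 and 0.19 (mean 0.14 ± 0.05, adjusted p = 0.177), the second highest of the 92 carriers. All 3 arrays of Slc16a8 were above every value of the other isoforms measured on all arrays, which follows from their opposite signs. Slc16a7 (MCT2) read 0.11 and 0.00 and was empty on array 3. The chaperone gene of MCT1 and MCT4, Bsg (basigin), read 0.08, 0.06 and 0.06 (mean 0.07 ± 0.01, adjusted p = 0.409), on the other side of 0 from both. The dicarboxylate carrier gene Slc13a3 stood at 0.08 ± 0.04. Its relatives lacked array 3: the sulfate carrier gene Slc13a1 read −0.22 and −0.19, and the citrate carrier gene Slc13a2 read 0.05 and −0.12.

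**Figure D3:**
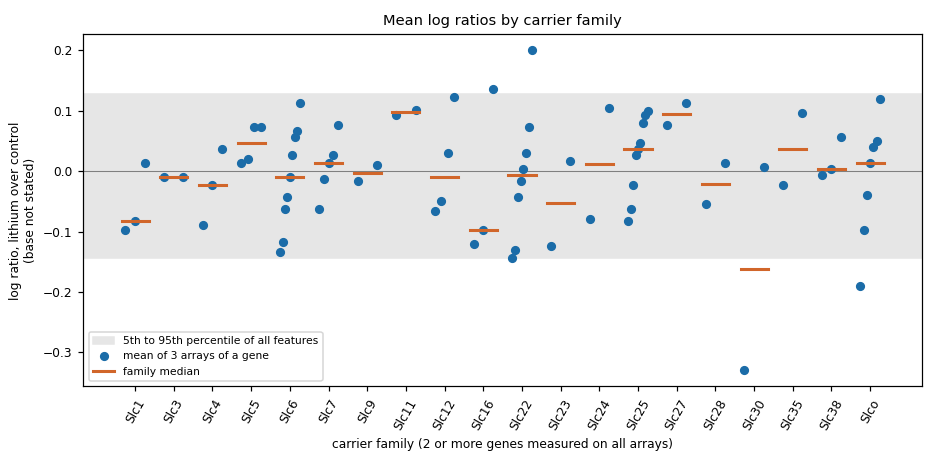
Mean log ratio over 3 arrays (lithium over control, base not stated) of each gene, by carrier family with at least 2 genes measured on all arrays; orange bars are family medians and the grey band spans the 5th to the 95th percentile of all 3819 features (−0.14 to 0.13). Of all 92 genes, 4 lie outside the band, and Slc22 holds genes at both ends.

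Acid-base exchangers measured on all arrays had means between −0.09 and 0.04. Among bicarbonate carriers, Slc4a7 (NBCn1), which loads cells with bicarbonate, had a mean of −0.09 ± 0.09 (limma adjusted p = 0.366) with −0.065, −0.185 and −0.02 on the 3 arrays. Its probes differed in size on array 2, at −0.05 and −0.32. The anion exchanger genes Slc4a2 (AE2) and Slc4a3 (AE3) stood at 0.04 ± 0.08 and −0.02 ± 0.02. Slc4a4 (NBCe1), the basolateral bicarbonate cotransporter of the proximal tubule, read 0.05 and −0.08 on arrays 1 and 2 only. The sodium-proton exchanger genes Slc9a3 (NHE3) and Slc9a4 (NHE4) stood at 0.01 ± 0.11 and −0.02 ± 0.02, and both signs turned under another centring, that of Slc9a4 within print blocks. Slc9a2 read −0.05 and −0.01 and Slc9a5 read 0.09 and 0.13, without array 3. Slc26a4 (pendrin), the chloride-bicarbonate exchanger of intercalated cells, read −0.25 and −0.20 on arrays 1 and 2 and was empty on array 3. The remaining anion exchangers lay near 0, with Slc26a1 at −0.02 ± 0.10, Slc26a3 at 0.03 and −0.03, Slc26a5 at 0.04 and 0.06, and Slc26a2 with array 2 only, at −0.01.

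Among cation-chloride cotransporters, Slc12a9 had the highest mean. Slc12a9, a member whose own substrates are less well known, read 0.15, 0.09 and 0.13 (mean 0.12 ± 0.03, limma adjusted p = 0.188), all above 0. Slc12a2 (NKCC1), the basolateral sodium-potassium-chloride cotransporter of the medullary collecting duct, stood at 0.03 ± 0.02 (adjusted p = 0.735) as the mean of 3 probes that ranged from −0.05 to 0.13. The potassium-chloride cotransporter genes stood at −0.05 ± 0.17 for Slc12a4 (KCC1) and −0.07 ± 0.10 for Slc12a5 (KCC2), each with array 2 above 0. Sodium-calcium exchangers differed in coverage as well as in ratio. Slc8a2 read 0.05, 0.14 and 0.02, whereas Slc8a3 read −0.50 and −0.74, the lowest pair of the 135 genes, and had no value on array 3. The potassium-dependent exchanger genes stood at 0.11 ± 0.11 for Slc24a2 and −0.08 ± 0.10 for Slc24a3, and Slc24a1 read −0.14 and −0.10. Of the probes of Slc24a2, one read 0.19 and the other −0.19 on array 2, and the latter was empty on array 3, so its mean mixes probes.

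Amino acid and neurotransmitter carriers formed the most numerous class, with 29 members, 23 of them on all arrays, 11 above and 12 below 0 (8 and 15 in the ratios as deposited). Slc6a15, a carrier of branched-chain amino acids and proline, read 0.14, 0.08 and 0.12 (mean 0.11 ± 0.03, limma adjusted p = 0.216), all above 0. The glial-type glutamate carrier gene Slc1a3 read −0.08, −0.07 and −0.10 (mean −0.08 ± 0.02, adjusted p = 0.324), all below 0. The other 21 had mixed signs or an array at exactly 0. Slc6a18, a neutral amino acid carrier of the proximal tubule, had the lowest mean, −0.13 ± 0.27 (adjusted p = 0.484). Array 2 alone set it, at −0.44, and without that array the mean was 0.02. Slc1a6, a glutamate carrier gene, had the same pattern, with −0.28 on array 2 and a mean of −0.10 ± 0.16, and Slc1a5, the glutamine carrier ASCT2, stood at 0.01 ± 0.05.

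The heteromeric amino acid exchangers pair a heavy chain (Slc3) with a light chain (Slc7). The heavy chain genes Slc3a1 and Slc3a2 both stood at −0.01, with SDs of 0.06 and 0.16. The light chain genes stood at 0.01 ± 0.10 for Slc7a5 (LAT1), 0.08 ± 0.10 for Slc7a8 (LAT2) and −0.01 ± 0.12 for Slc7a9. No light chain had a single sign on the 3 arrays, and Slc7a7 read −0.07 and −0.18 on the first 2 arrays. The cationic amino acid carrier genes stood at 0.03 ± 0.07 for Slc7a1 and −0.06 ± 0.14 for Slc7a2. Slc7a2 was 0.00 over the probe with a value on all arrays. Slc7a3 was low on arrays 1 and 2, at −0.47 and −0.31, and empty on array 3. Slc38a1, Slc38a3 and Slc38a4, carriers of glutamine and other neutral amino acids, stood at 0.06, 0.00 and −0.01. The lysosomal peptide carrier gene Slc15a4 stood at 0.05 ± 0.07, and the peptide carriers of the cell surface, Slc15a1 and Slc15a2, read −0.11 and 0.08 on array 1 and −0.07 and −0.43 on array 2.

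Carriers named for neurotransmitters also have substrates in the kidney, among them GABA, betaine and creatine. Slc6a13, a GABA and betaine carrier found in kidney, read −0.17, 0.03 and −0.21 (mean −0.12 ± 0.13, adjusted p = 0.330), and its relative Slc6a11 stood at −0.04 ± 0.08. The creatine carrier gene Slc6a8 stood at 0.06 ± 0.08. The monoamine carrier genes Slc6a2, Slc6a3 and Slc6a4 stood at −0.01, 0.03 and 0.07, and the proline carrier gene Slc6a7 at −0.06. The probes of Slc6a2 differed, and the one with a value on all arrays gave a mean of 0.09. The imino acid carrier gene Slc6a20a read −0.16 and −0.38 and was empty on array 3, and the glutamate carrier gene Slc1a2 had array 2 only, at −0.21. None of these was on 1 side of 0 on all 3 arrays.

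Sugar carriers were close to 0 wherever all 3 arrays gave a value. The intestinal and renal cotransporter gene Slc5a1 (SGLT1) stood at 0.01 ± 0.04 and the hepatic-type glucose carrier gene Slc2a2 at 0.00 ± 0.08. Slc5a11 (SMIT2), which takes up inositol with sodium, read 0.02, 0.11 and 0.09 (mean 0.07 ± 0.05, limma adjusted p = 0.395), all above 0. The iodide carrier gene Slc5a5 stood at 0.02 ± 0.04, and the glucose-6-phosphate carrier gene Slc37a4 at −0.06 ± 0.15. All 4 Slc5 genes were above 0 here, and with the ratios as deposited 2 were above, Slc5a1 below and Slc5a5 at 0. Slc2a4 (GLUT4), the insulin-responsive glucose carrier, was low on arrays 1 and 2, at −0.28 and −0.50, and empty on array 3. The fructose carrier gene Slc2a5 read 0.01 and 0.05, the vitamin carrier gene Slc5a6 read 0.01 and 0.04, Slc2a8 had array 3 only, at −0.07, and the choline carrier gene Slc5a7 had array 2 only, at −0.44.

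Phosphate carriers lay on both sides of 0. Slc20a1 (PiT-1), the widely expressed phosphate cotransporter, read −0.11, −0.06 and −0.10 (mean −0.09 ± 0.03, limma adjusted p = 0.30), and Slc20a2 read −0.02 and −0.01 on arrays 1 and 3. Slc34a1, the proximal tubule cotransporter, was above 0 on all arrays at 0.055, 0.19 and 0.005 (adjusted p = 0.409), where 1 of its probes read −0.01 on array 3, and Slc34a2 read −0.10 and 0.07. Slc17a1, an organic anion and phosphate carrier of the proximal tubule, read −0.43 and −0.21 and was empty on array 3.

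The 2 fatty acid carriers and most of the mitochondrial carriers measured on all arrays were above 0, against 55.7% of all features, and none passed. The fatty acid transport protein genes Slc27a5 and Slc27a1 read 0.09, 0.16 and 0.09 (mean 0.11 ± 0.04, limma adjusted p = 0.222) and 0.08, 0.13 and 0.02 (mean 0.08 ± 0.06, adjusted p = 0.387). Slc27a2, the form of the proximal tubule and liver, lay on the other side, at −0.24 and −0.46 on arrays 1 and 2 with array 3 empty. Of 9 mitochondrial carriers (Slc25) measured on all arrays, 6 were above and 3 below 0 under each of 5 scalings. Their median was 0.04, and it was 0.0167 in the ratios as deposited and 0.0133 with centring within print blocks. With array weights the median was 0.00271, and it ran from 0.005 to 0.06 when 1 array was left out. Slc25a10, the dicarboxylate carrier, was highest at 0.10 ± 0.08 (adjusted p = 0.318), followed by the ADP/ATP carrier gene Slc25a5 at 0.09 ± 0.08 and the phosphate carrier gene Slc25a3 at 0.08 ± 0.04. These 3 were above 0 on every array, and in the ratios as deposited Slc25a10 and Slc25a5 were below 0 on array 2. Slc25a20, which brings acylcarnitines into mitochondria for oxidation, was lowest and had little spread, at −0.07, −0.09 and −0.09 (mean −0.08 ± 0.01, adjusted p = 0.323). The citrate carrier gene Slc25a1 stood at 0.04, the ADP/ATP carrier gene Slc25a4 at 0.05, the oxoglutarate carrier gene Slc25a11 at −0.02, the oxoadipate carrier gene Slc25a21 at −0.06 and the uncoupling-protein relative Slc25a27 at 0.03. Of those without array 3, Slc25a14 and Slc25a16 read −0.01 and 0.00 on array 1 and −0.22 and 0.13 on array 2.

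Vitamin, nucleoside and Golgi carriers completed the set. Among the ascorbate carriers, Slc23a2, the widely expressed form, read −0.27, −0.07 and −0.03 (mean −0.12 ± 0.13, limma adjusted p = 0.308), and Slc23a1, the epithelial form, stood at 0.02 ± 0.14. Their values overlapped, and without array 1 the mean of Slc23a2 was −0.05. The folate carrier gene Slc19a1 stood at 0.08 ± 0.06. The nucleoside carrier genes stood at 0.01 for Slc28a1, 0.07 for Slc29a2 and −0.06 for Slc28a2, and Slc29a1 had array 3 only, at 0.11. On array 2 the probes of Slc28a2 read 0.14 and −0.57, and the latter had no other value. The probe with all arrays gave a mean of 0.06. Slc35e4, a member of the nucleotide sugar carrier family, read 0.09, 0.12 and 0.08 (mean 0.10 ± 0.02, adjusted p = 0.265), all above 0. Its relative Slc35b1 stood at −0.02, the acetyl-CoA carrier gene Slc33a1 at 0.04 ± 0.17 and the choline carrier gene Slc44a1 at −0.02 ± 0.13.

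Carriers that load synaptic vesicles were mostly empty on array 3. Only the vesicular monoamine carrier gene Slc18a2 had all arrays, at 0.02, 0.10 and 0.07 (limma adjusted p = 0.456). The vesicular glutamate carrier genes Slc17a6 and Slc17a7 read −0.32 and −0.10 on array 1 and −0.52 and −0.10 on array 2. The acetylcholine carrier gene Slc18a3 read −0.20 and −0.19, the GABA and glycine carrier gene Slc32a1 read 0.01 and −0.27, and Slc18a1 read 0.10 and −0.07. Neuronal markers were near or below 0: of 3 listed, 2 were measured on all arrays, with Snap25 at −0.11 and Gap43 at −0.02.

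Many of the low ratios on arrays 1 and 2 belonged to genes without a value on array 3, although Slc30a4, at −0.62 on array 2, had all arrays. Of the 135 genes, 40 were empty there (29.6%), against 24.3% of all 5086 features. Of the 35 with values on arrays 1 and 2 only, 20 were below 0 on both, against 65.7% of the 1083 such features, and 5 were above 0 on both, against 7.94%. Their medians were −0.10 and −0.12 on arrays 1 and 2, whereas the 92 genes with all arrays had medians of 0.01 and 0.04. The same gap existed over all features, at −0.08 and −0.16 without array 3 and 0.01 and 0.04 with it. The sources used here do not give the filter or the brightness behind an empty spot, and their part in these ratios was not tested.

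**Figure D4:**
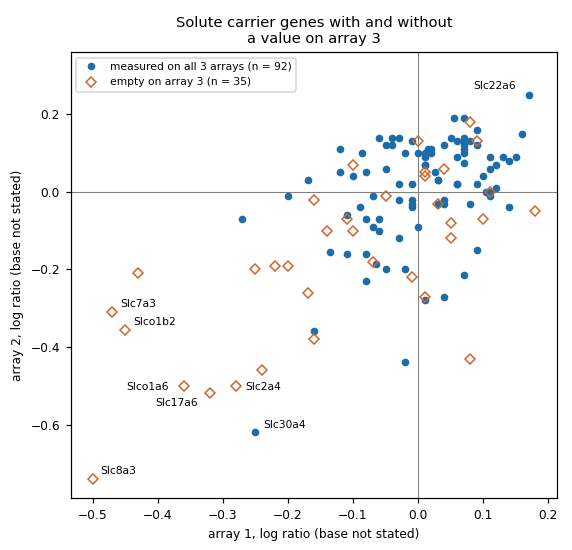
Log ratio on array 1 against that on array 2 (base not stated) for the 92 solute carrier genes with a value on all arrays (filled) and the 35 with none on array 3 (open). The open symbols reach down to −0.50 and −0.74 (Slc8a3), and the lowest filled symbol on array 2 is Slc30a4, at −0.25 and −0.62.

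The pump and the accessory proteins that solute carriers depend on also had no member past the threshold. Of 6 sodium pump genes and regulators measured on all arrays, 4 were above and 2 below 0 (3 and 3 in the ratios as deposited). The regulatory subunit genes Fxyd4 and Fxyd2 lay apart: Fxyd4, known from the collecting duct, read 0.16, 0.09 and 0.16 (mean 0.14 ± 0.04, limma adjusted p = 0.176), and Fxyd2, the gamma subunit, read −0.17, −0.05 and −0.30 (mean −0.17 ± 0.13, adjusted p = 0.183). Their values did not overlap, which follows from their opposite signs. The subunit gene Atp1b1 stood at 0.11 ± 0.07 (adjusted p = 0.277). Of 8 carrier chaperones and regulators, 7 were above 0 and 1 below (5 and 3 as deposited), with a median of 0.05 against 0.01 over all features. The membrane-cytoskeleton linker gene Ezr was highest at 0.06, 0.13 and 0.15 (adjusted p = 0.230), followed by the ubiquitin ligase gene Nedd4 at 0.09 ± 0.06 (adjusted p = 0.335). Among the carriers set aside by name, 9 were listed in the annotation, and their means ran from −0.17 for the glucose carrier gene Slc2a3 (adjusted p = 0.142) to 0.14 for the amino acid carrier gene Slc38a2 (adjusted p = 0.191), so none passed.

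Markers of other kidney segments had ratios of the same size as those of the carriers or larger. The 6 collecting duct principal cell markers all had means above 0 (5 of 6 as deposited), against 55.7% of all features. Their medians were 0.16, 0.19 and 0.19 on arrays 1, 2 and 3, and Hsd11b2 alone passed (0.49, limma adjusted p = 0.0234). Aqp2 read 0.11, 0.26 and 0.14, whereas Aqp3 read −0.02, 0.06 and −0.02. Both thin limb markers were below 0 on every array, Aqp1 at −0.19 and Bst1 at −0.11, and 3 of 4 thick limb and distal markers had means below 0, Umod at −0.18, Pvalb at −0.13 and Calb1 at −0.10. Calb1 stood at 0.015 without array 2, and Umod at −0.07 without array 3. Intercalated cell, endothelial and interstitial markers stood between −0.08 and 0.10. Red cells had no marker on all arrays. The part of these segments in the carriers' ratios was not tested.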

How the data were processed

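Inner medulla RNA was measured on 3 dual-colour spotted arrays of 5760 probes, and the deposited table held log ratios with 2 decimals. The base, scanner, background correction and normalization are not given in the sources used here, so depth and signal are unknown and the number of arrays limits the precision. Each array's median (−0.02, −0.04 and 0.00 as deposited) was subtracted, and probes of 1 gene were averaged per array. Names came from the platform's public annotation (5064 probes with 1 symbol, 9 with several, 687 not listed). The 3819 features on all arrays were fitted with limma 3.58.1 in R 4.3.3 (intercept, eBayes, two-sided, Benjamini-Hochberg over all of them), a fit tested on simulated data. Members, gene lists and tests were chosen with earlier results of these data known. Named were the 8 highest and 8 lowest members with 1 sign, each family's extremes where at least 3 were measured, 20 fixed kidney carriers where listed and 2 genes per partner list; the rest were added to account for every member. Promoters were aligned with Biopython 1.88, and tables and figures made with Python 3.11.15, pandas 2.3.3 and matplotlib 3.10.9.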

Additional observations from a re-analysis of the deposited data

How the results depend on the processing

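The count of 0 solute carrier genes past an adjusted p of 0.05 (limma; 15 at an unadjusted p of 0.05) became 2 with arrays scaled to equal spread, 1 with a robust prior and 32 with array weights, and stayed at 0 under the other alternatives. The weights were 4.52, 0.371 and 0.596 for arrays 1, 2 and 3, so that fit rested mostly on array 1 and called 1055 of all features. The 17 features called overall became 98 with scaled arrays, 94 with a robust prior, 8 with no prior, 40 with features on at least 2 arrays, 11 with single probes, 9 with only probes measured on all arrays (an alternative chosen after seeing the data) and 49 at an adjusted p of 0.10; without any 1 array it was 0. Carriers with 1 sign on all arrays fitted numbered 63 with features on at least 2 arrays, where 36 carriers with 2 arrays join the 92. They numbered 45 to 62 when 1 array was left out. Both alternatives leave fewer signs to agree. The count was 33 to 39 otherwise (37 of 92 in the reported fit, against 38.7% of all features). Shares over all features under the alternatives are not given here. The carriers' median of 0.01 was −0.01 without centring, −0.00333 with centring on the features on all arrays or with features on at least 2 arrays, and 0.01 to 0.0392 when 1 array was left out. The median over all features was likewise −0.01 without centring and −0.00333 with centring on the features on all arrays. The median of sodium-calcium and cation-chloride carriers was 0.03, and it was 0.01 without centring, 0.0133 with centring on the features on all arrays and −0.05 with features on at least 2 arrays. Of 681 single values of 52 named genes, 27 reversed, all of them in 11 genes. None of the 52 passed in the reported fit, and the cause of the reversals was not tested. Without centring, Slc1a5, Slc5a1 and Slc7a5 stood at −0.01 and Slc9a3 at −0.01. Centred on the features on all arrays, Slc1a5, Slc5a1 and Slc7a5 stood at −0.00333 and Slc9a3 at −0.00667. Centred within print blocks, Slc1a5 stood at −0.01, Slc5a1 at −0.00667 and Slc9a4 at 0.0133, and with scaled arrays Slc9a3 stood at −0.00450. With array weights, Slc1a5 stood at −0.00199, Slc38a4 at 0.0205, Slc3a2 at 0.0204, Slc4a2 at −0.0216 and Slc9a3 at −0.0454. The probe of Slc7a2 on all arrays gave 0.00333, alone or as the gene's only probe. With 1 array left out, Slc12a4 ran from −0.135 to 0.035, Slc1a5 ran from −0.015 to 0.03, Slc38a4 ran from −0.025 to 0.005, Slc3a2 ran from −0.075 to 0.08, Slc4a2 ran from −0.005 to 0.075, Slc6a18 ran from −0.23 to 0.02, Slc7a5 ran from −0.03 to 0.07 and Slc9a3 ran from −0.055 to 0.045. No paired analysis was possible because each array is itself the comparison and there is only 1 group.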

Other observations

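Primary active transporters outside the solute carriers were measured on the same arrays, and none passed the limma threshold. Of 12 ATP-binding cassette transporter genes on all arrays, 5 were above 0, 5 below and 2 at 0 (5 above and 7 below in the ratios as deposited). Abcc5, an exporter of cyclic nucleotides and other organic anions, read 0.17, 0.14 and 0.13 (mean 0.15 ± 0.02, adjusted p = 0.153). Abcg1, a cholesterol exporter, read 0.14, 0.08 and 0.19 (mean 0.14 ± 0.06, adjusted p = 0.181). Abcc9, the sulfonylurea receptor subunit of vascular potassium channels, read −0.16, −0.05 and −0.19 (mean −0.13 ± 0.07, adjusted p = 0.203). Each of these 3 was on 1 side of 0 on every array, as was Abcb9 at −0.02, −0.14 and −0.04. Of all features, 38.7% had 1 sign. The cassette genes without array 3 were below 0 on arrays 1 and 2, except Abcb4 at 0.02 on array 1. Of all features without array 3, 65.7% were below 0 on both.

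Proton and calcium pumps divided in the same way. Of 6 proton pump genes, 3 were above and 3 below 0, with Atp6ap1, an accessory subunit, at 0.15 ± 0.11 (adjusted p = 0.203) and Atp6v0a2, a membrane-sector subunit, at 0.12 ± 0.06 (adjusted p = 0.229). Of 6 calcium pump genes, 3 were above and 3 below 0, with Atp2c1, the pump of the Golgi, at 0.12 ± 0.11 (adjusted p = 0.270) and Atp2b2, a plasma membrane pump, at 0.09 ± 0.02 (adjusted p = 0.276). The carbonic anhydrase genes had 3 of 4 above 0 (2 of 4 as deposited), among them Car4 at 0.08 ± 0.06 (adjusted p = 0.382) and Car5a at 0.06 ± 0.02 (adjusted p = 0.461).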
